A study of Mus musculus with 6 samples.

Results

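The endothelial genes of the forebrain vessels studied here were Pecam1, Kdr, Flt1, Tek, Tie1, Cldn5, Esam, Emcn, Sox17 and Sox18. They were found as the probes whose gene symbol in the authors' deposited table equals one of these names, which gave 12 probes for the 10 genes, of 21067 genes and unnamed probes tested in all. Dorsal forebrains of 3 mutant and 3 control mouse embryos of stage E11.5 were each dissected singly, and their RNA was hybridised to 1-colour arrays. The labels call the genotypes mutant and control and give no allele or driver, and the series title places the study in Wnt/beta-catenin signalling of cortical precursors. Mutant 1 and control 1 were from litter 1, mutant 2 and control 2 from litter 2, and mutant 3 and control 3 from litter 3. Each embryo is thus 1 biological sample, and each litter holds 1 of each genotype.

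A level here is the log2 signal after subtraction of the array's own 75th percentile, and differences are mutant minus control. Because each probe binds with its own strength, levels are compared between embryos and never between probes. The 2 arrays of litter 1 shared a slide and the other 4 arrays shared another. Between 65.75% and 67.9% of spots stood well above background in mutants and between 68.68% and 70.1% in controls, and the 75th percentile of the signal was 1206.9 to 1380.2 in mutants and 1446.2 to 1833.2 in controls. No spot was saturated. All 12 endothelial probes were well above background on all 6 arrays, with processed signals between 94.3 and 4050. All 27 other endothelial genes and all 10 genes of dorsal forebrain progenitors on the lists used here were also detected on every array, so both the labelled tissue and its vessels were represented.

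The forebrain makes no vessels of its own. At this stage, capillary sprouts grow in from a plexus around the neural tube, drawn by VEGF-A from neural precursors, and Wnt ligands from the same precursors act through beta-catenin in the endothelium to promote its growth and its barrier properties. VEGF-A acts mainly through Kdr (VEGF receptor 2), while Flt1 (VEGF receptor 1) binds the ligand tightly and limits it. Tek (Tie2) is the receptor of the angiopoietins, Tie1 is its partner, and junction proteins such as Cldn5 later seal the brain vessels.

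Expression of endothelial genes is commonly driven by factors of the ETS family, and Sox17 and Sox18 are themselves transcription factors of vessels. The 250 bases before the transcription start were taken from RefSeq (GRCm38.p6) for Cldn5, Emcn, Flt1, Kdr, Tek and Tie1. Both receptors of VEGF-A and the angiopoietin receptor are printed 5′ to 3′ as examples, with matches in capitals.
Kdr promoter, chr5:75978456-75978705, minus strand: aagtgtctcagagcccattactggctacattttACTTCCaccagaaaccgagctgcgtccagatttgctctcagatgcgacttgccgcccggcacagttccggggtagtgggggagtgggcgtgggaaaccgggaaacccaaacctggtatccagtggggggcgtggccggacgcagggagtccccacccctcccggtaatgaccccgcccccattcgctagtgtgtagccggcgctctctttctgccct
Flt1 promoter, chr5:147726012-147726261, minus strand: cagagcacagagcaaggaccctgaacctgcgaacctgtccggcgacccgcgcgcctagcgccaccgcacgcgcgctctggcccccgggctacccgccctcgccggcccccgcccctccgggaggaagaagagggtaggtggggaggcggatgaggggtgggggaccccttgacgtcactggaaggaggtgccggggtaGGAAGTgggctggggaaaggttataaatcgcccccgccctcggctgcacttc
Tek promoter, chr4:94739039-94739288, plus strand: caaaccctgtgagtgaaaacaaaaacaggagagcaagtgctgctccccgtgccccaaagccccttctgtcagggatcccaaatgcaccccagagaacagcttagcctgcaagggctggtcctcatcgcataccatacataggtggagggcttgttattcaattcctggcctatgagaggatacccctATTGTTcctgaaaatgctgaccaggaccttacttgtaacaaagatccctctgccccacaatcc
The capitals mark GGAAGT or its reverse complement ACTTCC, an ETS core, in Kdr and Flt1, and ATTGTT, the reverse complement of the SOX motif AACAAT, in Tek. The ETS letters were in 3 of the 6 promoters (217 bases before the start in Kdr, 52 in Flt1 and 82 in Tie1) and in 19.7% of all 32851 promoters of that length. The SOX letters were in 2 of the 6 (63 bases before the start in Tek and 50 in Emcn) and in 9.42% of all promoters. The TCF letters CTTTGA or TCAAAG were in 0 of the 6 and in 13.8% of all. These matches describe the sequence only.

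None of the 10 endothelial genes differed between mutant and control embryos beyond the spread among embryos. In limma's test over all 21067 rows, 0 of 10 passed an adjusted p of 0.05, where 7 rows or 0.0332% of all passed, and 0 of 10 had an unadjusted p under 0.05, as did 16.9% of all rows. Differences of 4 genes were positive and of 6 negative, with a median of -0.13 beside 0.02 over all rows. For each of the 10 genes the levels of mutants and controls overlapped, while 24.9% of all rows had groups that did not overlap. In bulk tissue, fewer endothelial cells and less RNA per endothelial cell cannot be told apart.

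**Figure D1:**
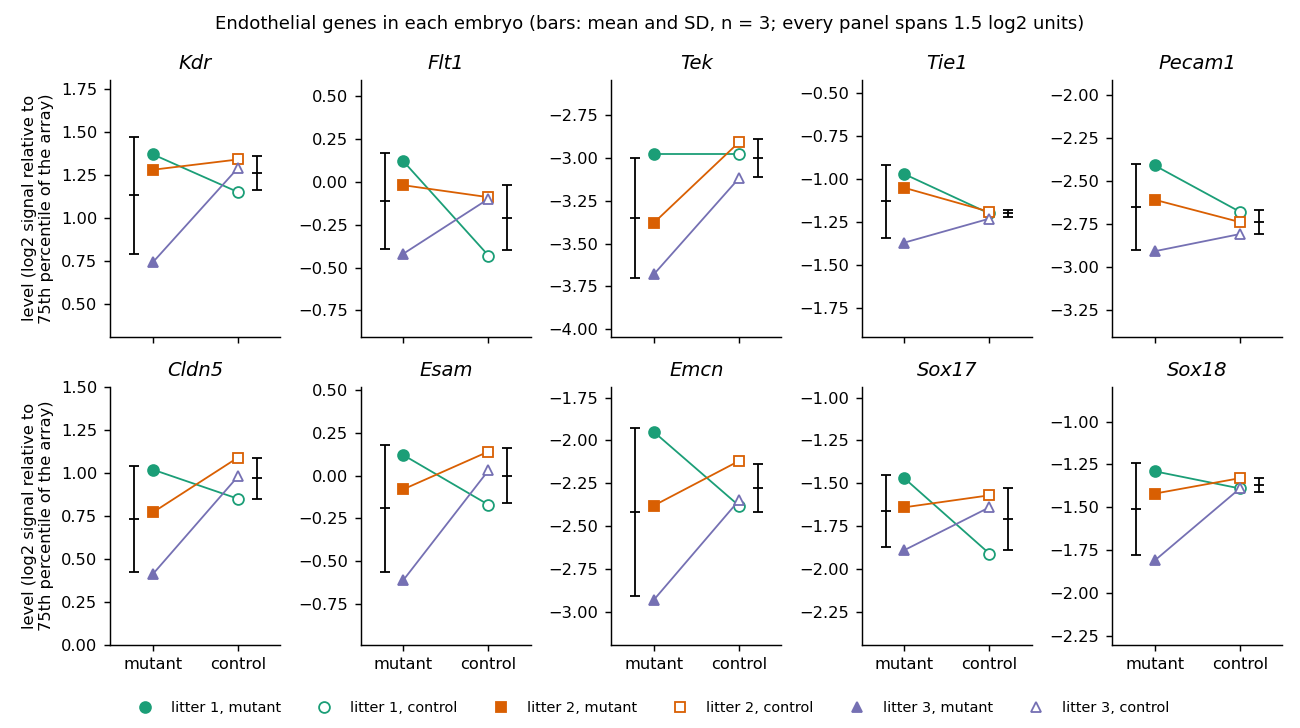
Each panel shows 1 endothelial gene in the 6 embryos, by its brightest probe, as log2 signal relative to the array's 75th percentile. Filled symbols are mutants, open symbols controls, lines join embryos of a litter, and bars give mean and SD (n = 3). Mutant 1 is the highest mutant and mutant 3 the lowest mutant in every panel, and the groups overlap for all 10 genes.

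The 10 genes shared an order of the embryos. All 10 were highest among mutants in mutant 1, as were 33.0% of all rows, and all 10 had mutant 2 between mutant 1 above and mutant 3 below, as did 17.4% of all rows. Kdr followed this order by its brighter probe alone, since its second probe was at 0.73, 0.56 and 0.65 in mutants 1 to 3. Mutant 3 was the lowest of all 6 embryos for 8 genes (16.8% of all rows) and mutant 1 the highest of all 6 for 7 genes (19.4%). The SD among mutants exceeded that among controls for all 10 genes, as for 66.8% of all rows, with a median SD of 0.29 in mutants and 0.12 in controls. Over all rows these medians were 0.16 in mutants and 0.11 in controls. Kdr enters the counts of lowest embryo and of SD by its brighter probe alone. Its second probe was lowest in control 1 (0.52) and spanned a like range in mutants (0.56 to 0.73) and controls (0.52 to 0.68).

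Set against the control of the same litter, the mutants lay on opposite sides of it. In litter 1 all 10 genes were higher in the mutant, by a median of 0.25 (0.00 to 0.55), where 52.1% of all rows were higher. Tek counts among them by a margin that rounds to 0.00. In litter 2, 7 of 10 were lower in the mutant (47.8% of all rows), with a median of -0.08 (-0.48 to 0.14). In litter 3 all 10 were lower in the mutant (45.0% of all rows), with a median of -0.49 (-0.64 to -0.10). All 10 were thus higher in litter 1 and lower in litter 3, as were 17.9% of all rows. Medians over all rows were 0.01, 0.01 and 0.04 in litters 1, 2 and 3. Each litter's value compares 1 embryo with 1 embryo and has no replicate of its own, so the difference between litters was not tested. The median difference over the 10 genes was -0.25 without mutant 1 and 0.09 without mutant 3, so that either embryo decided its sign or size.

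**Figure D2:**
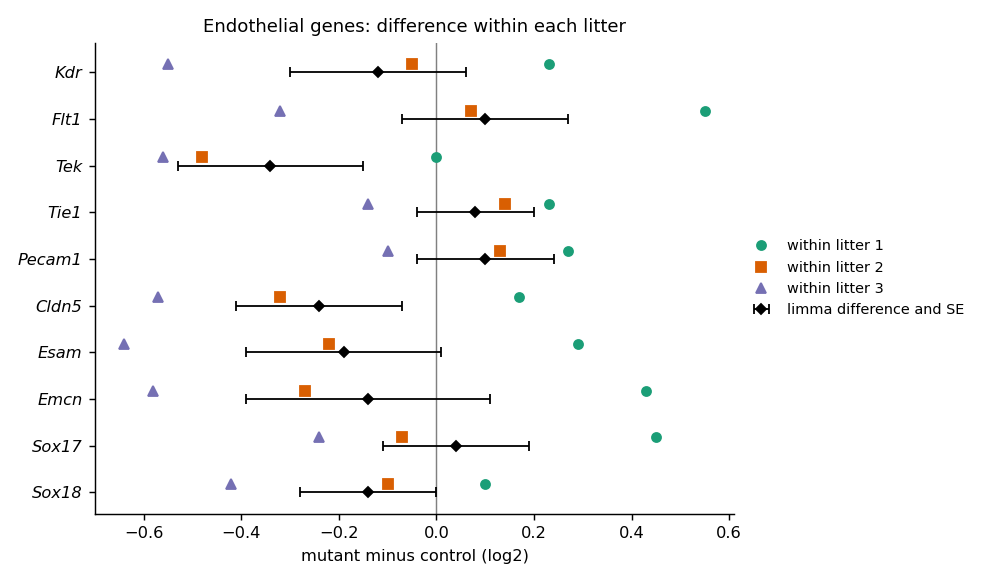
Coloured symbols give the log2 difference of mutant minus control within each litter, and black diamonds the limma difference with its SE (n = 3 mutants and 3 controls), for each endothelial gene. Litter 1 lies at or above 0 and litter 3 below 0 for all 10 genes, with medians of 0.25 and -0.49.

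Among the receptors of VEGF, Kdr, the main signalling receptor of VEGF-A, was measured by a probe printed in 10 spots per array (mm9 chr5:76329309-76329368) and had levels of 1.37, 1.28 and 0.74 in mutants 1 to 3, against 1.15, 1.34 and 1.29 in controls 1 to 3. Mutant 3 stood below the other 5 embryos, and the remaining mutants lay within or just above the range of the controls. The difference of -0.12 (SE 0.18) did not pass (limma, adjusted p = 0.76). Within litters 1, 2 and 3 it was 0.23, -0.05 and -0.55, and the last corresponds to 0.684 times the level of the littermate control.

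The 10 spots of that Kdr probe show the spread between spots of 1 probe on 1 array. They share RNA, labelling and hybridisation, so this spread leaves out the error of those steps and of the probe itself. Their SD within an array was 0.05 to 0.07, over 9 or 10 spots that were not outliers. In mutant 3 they ran between 0.62 and 0.84 with a median of 0.74, and the lowest spot of any control was at 1.08. The low value of mutant 3 thus held in every spot of the probe. The second Kdr probe (mm9 chr5:76330395-76330454), 1026 bases away, did not share it: its levels were 0.73, 0.56 and 0.65 in mutants and 0.52, 0.54 and 0.68 in controls. Its difference was 0.07 (SE 0.08), with 0.22, 0.02 and -0.03 in litters 1 to 3, and over the 6 arrays both Kdr probes correlated at r = 0.01. The probes agree on the higher value in litter 1 and disagree on litter 3, so the low Kdr value of mutant 3 rests on the brighter probe.

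**Figure D3:**
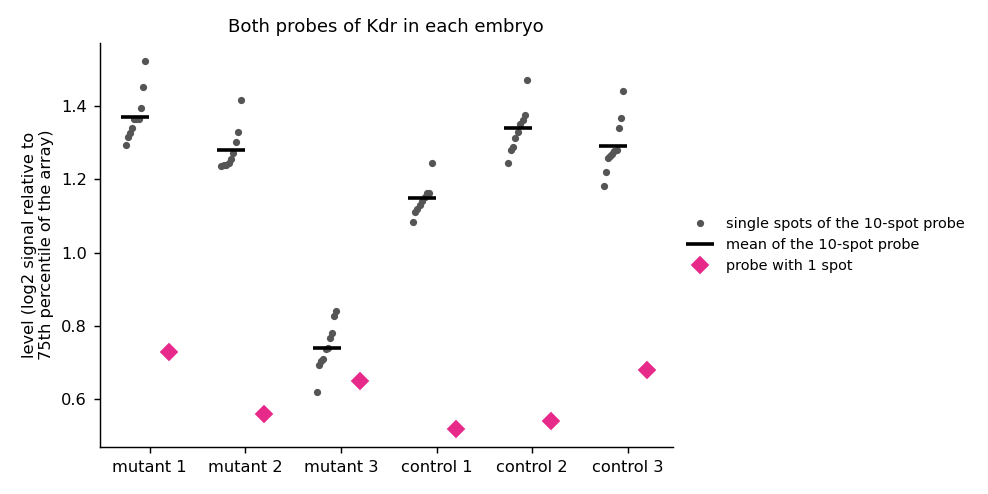
Levels of both Kdr probes in each embryo, as log2 signal relative to the array's 75th percentile. Grey points are single spots of the probe with 10 spots, black bars their mean, and pink diamonds the probe with 1 spot. Every spot of the first probe in mutant 3 (0.62 to 0.84) is below the lowest control spot (1.08), while the other probe gives 0.65 in mutant 3, within its control range.

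Flt1, the tightly binding VEGF receptor 1, was at 0.12, -0.02 and -0.42 in mutants (mm9 chr5:148373791-148373850), against -0.43, -0.09 and -0.10 in controls. Control 1 and mutant 3 were the lowest embryos, at nearly the same level, so the wide spread was present in both genotypes. The difference was 0.10 (SE 0.17, limma adjusted p = 0.798), made of 0.55, 0.07 and -0.32 within the litters. The 0.55 of litter 1 was the highest within-litter value of the 10 genes.

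Tek, the angiopoietin receptor, had the lowest p of the 10 genes. It was at -2.98, -3.38 and -3.68 in mutants (mm9 chr4:94540624-94540683), against -2.98, -2.91 and -3.12 in controls. Mutants 2 and 3 lay below all controls and mutant 1 lay among them. The difference of -0.34 (SE 0.19) did not pass, with an unadjusted p of 0.115 and an adjusted p of 0.404 in limma. It was -0.17 with normexp background correction, -0.53 without mutant 1 and -0.18 without mutant 3. Its litter values were 0.00, -0.48 and -0.56, and Tek was the member nearest to 0 in litter 1. Tie1, its partner receptor, was at -0.97, -1.05 and -1.37 in mutants (mm9 chr4:118144132-118144191), against -1.20, -1.19 and -1.23 in controls. Controls were nearly equal, mutants 1 and 2 stood above them and mutant 3 below, with 0.23, 0.14 and -0.14 within the litters and a difference of 0.08 (SE 0.12, limma adjusted p = 0.779).

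Genes of endothelial junctions and the cell surface followed the same order. Pecam1, an adhesion molecule at contacts between endothelial cells, was at -2.41, -2.61 and -2.91 in mutants (mm9 chr11:106540864-106540923), against -2.68, -2.74 and -2.81 in controls. Its mutants spanned a range on both sides of the controls, and the difference was 0.10 (SE 0.14, limma adjusted p = 0.754). Litters 1, 2 and 3 gave 0.27, 0.13 and -0.10, the mildest value in litter 3 among the 10 genes.

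Cldn5, the main claudin of brain endothelium, was at 1.02, 0.77 and 0.41 in mutants (mm9 chr16:18778046-18778105), against 0.85, 1.09 and 0.98 in controls. Mutants 2 and 3 were below all controls, mutant 1 among them, and the difference was -0.24 (SE 0.17, limma adjusted p = 0.509). It was -0.38 without mutant 1 and -0.08 without mutant 3. The litters gave 0.17, -0.32 and -0.57, the last being 0.673 times the littermate control. Esam, an adhesion molecule of endothelial tight junctions, was at 0.12, -0.08 and -0.61 in mutants (mm9 chr9:37345795-37345854), against -0.17, 0.14 and 0.03 in controls. Only mutant 3 lay outside the range of the controls, and Esam had the lowest litter 3 value of the 10 genes, -0.64 or 0.643 times the littermate control. Its other litter values were 0.29 and -0.22, and the overall difference was -0.19 (SE 0.20, limma adjusted p = 0.673).

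Emcn, a sialomucin of capillary and venous endothelium, was at -1.95, -2.38 and -2.93 in mutants (mm9 chr3:137086389-137086448), against -2.38, -2.12 and -2.35 in controls. Mutant 1 was above and mutant 3 below every control, and mutant 2 equalled control 1. The litters gave 0.43, -0.27 and -0.58, which left a difference of -0.14 with the largest SE of the 10 genes (0.25, limma adjusted p = 0.811).

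Both SOX factors also spread by embryo. Sox17, a factor of arterial endothelium, was at -1.47, -1.64 and -1.89 in mutants (mm9 chr1:4481503-4481562), against -1.91, -1.57 and -1.64 in controls. Control 1 was as low as mutant 3, the litters gave 0.45, -0.07 and -0.24, and the difference was 0.04 (SE 0.15, limma adjusted p = 0.90). A second Sox17 probe 405 bases away was at -2.01, -2.48 and -2.61 in mutants and -2.47, -2.28 and -2.31 in controls, with 0.46, -0.20 and -0.30 within the litters. Unlike those of Kdr, both Sox17 probes followed each other over the 6 arrays (r = 0.85). Sox18, a factor of blood and lymphatic vessel development, was at -1.29, -1.42 and -1.81 in mutants (mm9 chr2:181404789-181404848), against -1.39, -1.33 and -1.39 in controls. Its controls were close together, mutants 1 and 2 lay just outside them on either side, and mutant 3 stood apart below. The litters gave 0.10, -0.10 and -0.42, and the difference was -0.14 (SE 0.14, limma adjusted p = 0.649).

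Over the 6 arrays the 10 genes moved as a group. The 45 pairs had Pearson r of 0.38 to 0.98 with a median of 0.79, as a description over 6 arrays that share the scaling. Emcn followed the mean of the other 9 most closely (r = 0.99), then Kdr and Esam (0.97 each), Sox18 (0.96) and Cldn5 (0.92), and Pecam1 least (0.72). The value of Kdr is that of its brighter probe, which did not follow the second one (r = 0.01). Over all rows the median r with the mean of the 10 was -0.06, and 1.39% of rows had an r over 0.9. The named genes outside the 10 with the highest r were Tmbim1 (0.998), Lamc3, Wtip and Eif4e3 (0.996 each), Prcp (0.993), Sh3tc1 and Mtnr1a (0.992 each) and Ccnd3 (0.991), none of which was on a list used here.

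In the authors' deposited table the log2 ratios of mutant to control were also small for these genes. Tek was at -0.3466 with an fdr of 0.198, the lowest fdr of the 10, and Cldn5 at -0.1857 with an fdr of 0.4966. The authors' deposited table gives Kdr at -0.09932 (fdr 0.744) and Flt1 at 0.1317 (fdr 0.6305), and has no fdr for Pecam1 and Tie1.

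A longer list of 27 other endothelial genes, which holds none of the 10, also had mutant 1 highest and mutant 3 lowest by its median. This median lay at 0.24, 0.06 and -0.27 from the control mean in mutants 1 to 3, against -0.18, 0.15 and 0.03 in controls 1 to 3. For the 10 genes those medians were 0.18, -0.02 and -0.48 in mutants and -0.11, 0.11 and -0.01 in controls. In litter 1, 24 of the 27 were higher in the mutant (52.1% of all rows), and in litter 3, 22 of the 27 were lower (45.0%). Mutant 2 lay between mutant 1 above and mutant 3 below for 18 of the 27 (17.4% of all rows). In limma 0 of 27 passed, and the median difference was 0.03. At an unadjusted p under 0.05, 1 was higher and 1 lower (9.5% and 7.44% of all rows). Groups did not overlap for 3 of the 27 (24.9% of all rows). VE-cadherin (Cdh5), the adhesion molecule of endothelial adherens junctions, was at 0.26, 0.17 and -0.34 in mutants and -0.26, 0.11 and -0.02 in controls (difference 0.08, SE 0.19), and was picked here, after its values were seen, as the best known gene of that list. By smallest p the list led with Vwf, the von Willebrand factor, at -0.22, 0.00 and -0.20 in mutants and -0.90, -0.32 and -0.88 in controls (0.56, SE 0.18, limma adjusted p = 0.227), then Arhgef15 (-0.47), Ptprb (0.32) and Lmo2 (-0.60). Of these, Lmo2 followed the mean of the 10 genes over the arrays (r = 0.84), and Vwf (-0.03), Arhgef15 (-0.17) and Ptprb (0.11) did not.

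Markers of other tissue components also differed by embryo, only some of them along with the endothelial genes, and their part in the result was not tested. Erythroid genes, the content of the vessels, had a median of -0.12, -0.10 and -1.03 from the control mean in mutants 1 to 3, and between -0.07 and 0.13 in controls. All 13 were lower in mutant 3 than in its littermate (45.0% of all rows). In litter 1, 5 of the 13 were higher in the mutant (52.1% of all rows), where all 10 endothelial genes were. Their summed level, relative to the 75th percentile on a linear scale, was 462 to 749 in mutants and 665 to 762 in controls for the erythroid genes. Such a sum mostly reflects the brightest probes of a list, here those of the globins, and is set only between embryos. The 16 genes of meninges and head mesenchyme had medians of 1.04, -0.24 and -0.72 in mutants against 0.12, 0.03 and -0.21 in controls, and summed levels of 15.5 to 46.8 in mutants and 21.4 to 31.6 in controls. All 13 erythroid and all 16 meningeal genes were above background on every array. Neuronal genes ran the other way, with medians of 0.12, 0.44 and 0.69 in mutants and 0.12, -0.01 and -0.11 in controls. Their summed levels were 84.2 to 119 in mutants and 72.8 to 79.7 in controls. In litter 1, however, 6 of the 13 were higher in the mutant (52.1% of all rows), and both neuronal medians were 0.12. Snap25, named after its values were seen, was at 2.88 in mutant 1 and 1.69 in control 1. It thus added to the gap between the sums of these embryos. The median r of single genes with the mean of the 10 endothelial genes was 0.85 for erythroid, 0.70 for meningeal and -0.76 for neuronal genes. Of these lists 0 genes passed in limma, and 7 of 13 neuronal genes were higher at an unadjusted p under 0.05 (9.5% of all rows), led by Ncam1 (0.50), Gap43 (0.61), Celf4 (0.55) and Tubb3 (0.29). Epb42 (-0.78), Rhd (-0.51), Ahsp (-0.61) and Rhag (-0.37) led the erythroid list, and Prrx1 (-0.42), Dcn (-0.56), Pdgfra (0.49) and Osr1 (-0.54) the meningeal one.

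**Figure D4:**
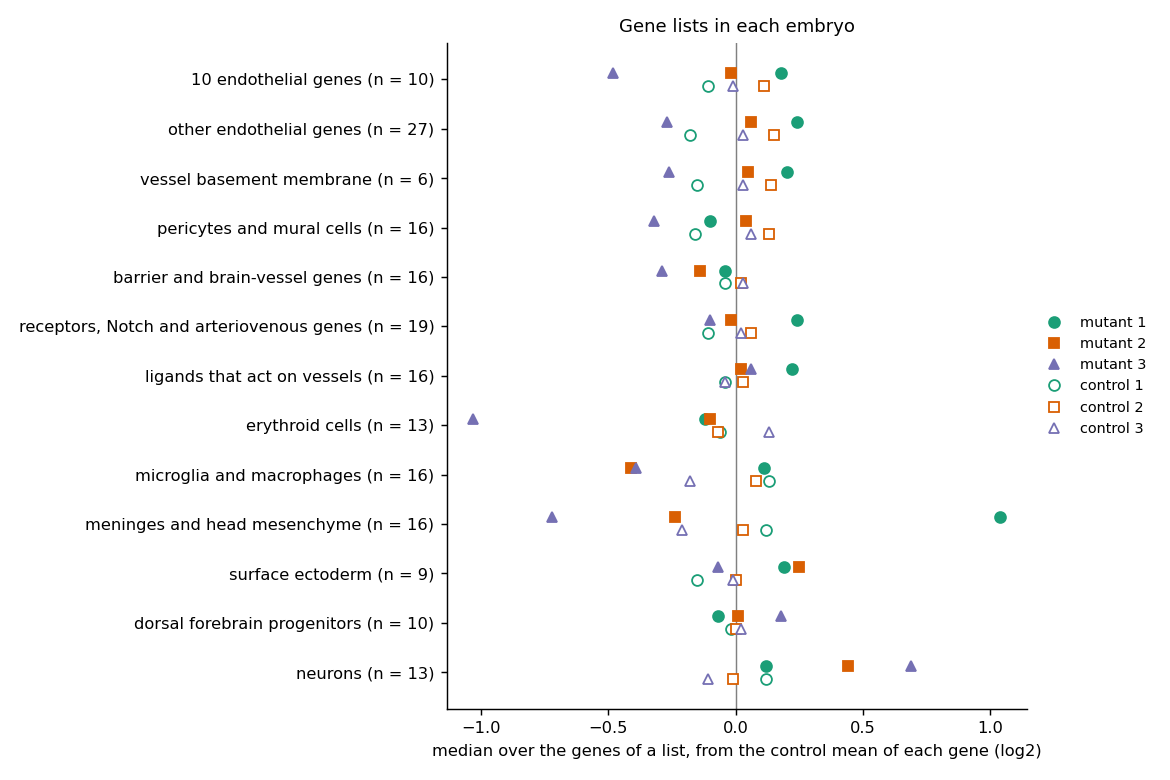
For each gene list, the median over its genes of the level minus the control mean of the gene (log2) is shown in each embryo, mutants filled and controls open. The 10 endothelial genes, the other endothelial genes, the erythroid genes and the meningeal genes are all lowest in mutant 3 (-0.48, -0.27, -1.03 and -0.72), where the neuronal genes are highest (0.69).

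Other genes of the vessel wall differed in how closely they followed. The 6 basement membrane genes did so closely (median r 0.82), with medians of 0.20, 0.05 and -0.26 in mutants and -0.15, 0.14 and 0.03 in controls, and 0 of 6 passed. Nid2, a nidogen that links laminin and collagen networks, differed most, at 0.34, 0.25 and -0.19 in mutants and 0.52, 0.70 and 0.73 in controls (-0.52, SE 0.16, limma adjusted p = 0.217), ahead of Col4a2 (0.15), Hspg2 (-0.09) and Lama4 (-0.05). The 16 pericyte and mural genes followed little by their median r of 0.15, but single genes ranged from -0.57 to 0.97. Their median difference was -0.12, and 0 passed. Mcam, an adhesion molecule of mural and endothelial cells, was at 3.12, 2.68 and 3.31 in mutants and 3.94, 3.50 and 3.79 in controls (-0.70, SE 0.20, limma adjusted p = 0.203). Des was above background on 3 arrays and its difference of -0.84 was 0.15 after normexp background correction, and Cspg4 (0.31) and Vtn (-0.27) had overlapping groups.

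Of 17 barrier and brain-vessel genes 16 were measured and 0 passed, with 1 higher and 5 lower at an unadjusted p under 0.05 (9.5% and 7.44% of all rows) and a median of -0.11. Groups did not overlap for 6 of 16 (24.9% of all rows). Slc7a5, which forms a transporter of large neutral amino acids with Slc3a2, was at -0.54, -0.67 and -0.83 in mutants and -0.47, -0.11 and -0.17 in controls (-0.43, SE 0.13, limma adjusted p = 0.218). Slc3a2 (-0.26) also had mutants below all controls, and Spock2 (0.40) had them above. All were named for their small p, so that their lack of overlap follows from the choice. Both transporter subunits are made in many cell types, so in whole tissue their levels are not those of vessels alone.

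Of 16 ligands that act on vessels 0 passed in limma, while 4 were higher and 1 lower at an unadjusted p under 0.05, where 9.5% of all rows were higher and 7.44% lower. Mutants and controls did not overlap for 5 of the 16, beside 24.9% of all rows. Vegfc, the ligand of the lymphatic VEGF receptor that also acts on early brain vessels, was at 0.37, 0.07 and -0.09 in mutants, against 1.01, 1.07 and 1.18 in controls. All mutants were below all controls, by -0.97 (SE 0.13, limma adjusted p = 0.0986), or 0.511 times the control level. Vegfa, the ligand of Kdr and Flt1, was at 1.26, 1.39 and 1.16 in mutants and 1.05, 1.0 and 0.84 in controls, a difference of 0.31 (SE 0.10, limma adjusted p = 0.227). It was named to complete the count after its values were seen.

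Wnt7a, which acts on brain endothelium through beta-catenin, was at 0.59, 0.92 and 0.94 in mutants and 0.22, 0.20 and 0.01 in controls (0.67, SE 0.12, limma adjusted p = 0.136). Angpt2, a Tek ligand that mostly opposes Angpt1, was at -3.06, -2.75 and -2.72 in mutants and -3.58, -3.39 and -3.34 in controls (0.60, SE 0.13, limma adjusted p = 0.152). Sema3a, a repulsive cue for axons and vessels, was at -1.46, -1.36 and -0.93 in mutants and -1.77, -2.00 and -2.14 in controls (0.72, SE 0.17, limma adjusted p = 0.179). These 5 ligands were those of smallest p, so that their lack of overlap follows from the choice. Of the 10 endothelial genes 0 were higher and 0 lower in all 3 litters, as were 26.1% and 21.3% of all rows. By their median r of -0.21 the ligands did not follow the 10 genes, but single ligands ranged from -0.84 to 0.98.

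**Figure D5:**
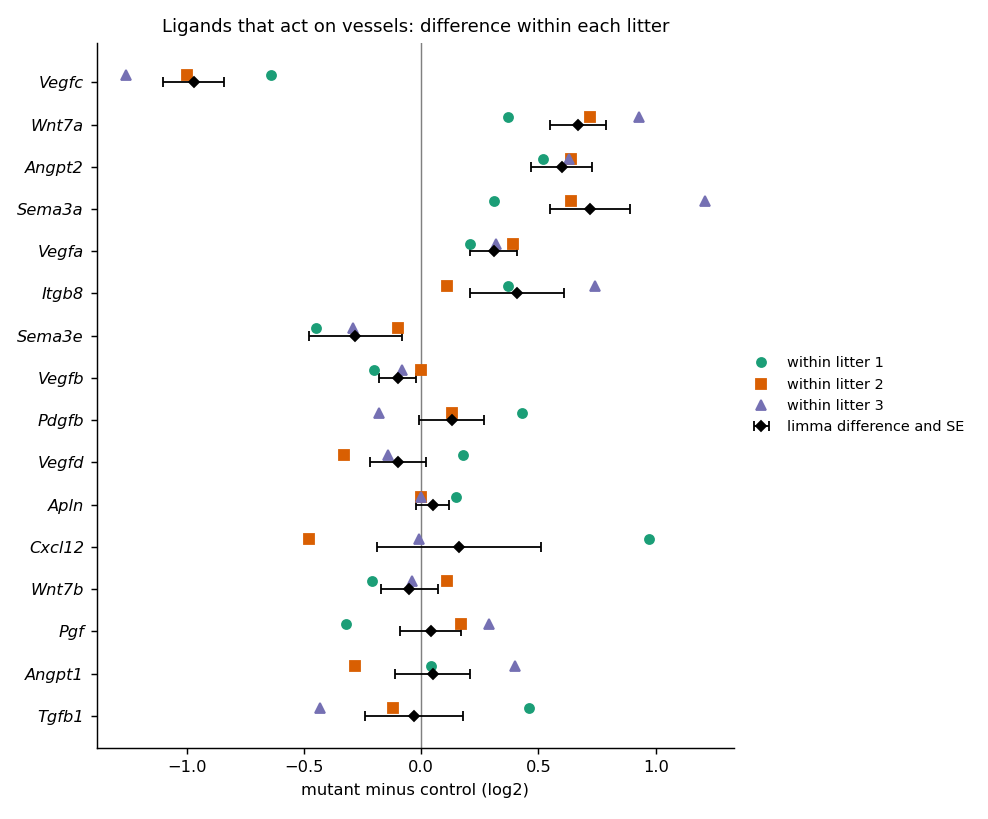
Log2 difference of mutant minus control for 16 ligands that act on vessels, within each litter (coloured symbols) and from limma with its SE (black diamonds, n = 3 mutants and 3 controls). Vegfc lies below 0 and Wnt7a, Angpt2, Sema3a and Vegfa above 0 in all 3 litters, and none passed an adjusted p of 0.05.

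Among 19 receptors, Notch components and genes of arterial or venous identity, 0 passed and 4 were higher and 2 lower at an unadjusted p under 0.05 (9.5% and 7.44% of all rows). Groups did not overlap for 7 of the 19 (24.9% of all rows). Nr2f2 (COUP-TFII), a factor of venous endothelium that is also made in the developing brain itself, was at 1.13, 1.20 and 1.42 in mutants, against 0.59, 0.42 and 0.42 in controls (0.77, SE 0.10, limma adjusted p = 0.0986). Gja5 (connexin 40), a gap junction protein of arterial endothelium, was at -2.75, -2.97 and -2.76 in mutants, against -4.58, -3.65 and -4.72 in controls (1.49, SE 0.29, limma adjusted p = 0.145). Both were higher in all mutants than in any control. Unc5b, a guidance receptor of tip cells, differed by -0.46 (SE 0.12, limma adjusted p = 0.189) and the Notch ligand Jag2 by 0.34 (SE 0.09, limma adjusted p = 0.196), also without overlap. These 4 genes were those of smallest p, so that their lack of overlap follows from the choice. Jag1, another Notch ligand that was named after its values were seen, was lower without overlap (-0.62, SE 0.19, limma adjusted p = 0.216). Over the 19 genes 11 differences were positive and 8 negative.

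Levels of each endothelial gene were also set against the mean of the other 9 on the same array, a scaling chosen after seeing the data, which removes what the genes share. By construction the differences of the 10 genes on this scale cancel out, so some are positive wherever others are negative. Mutants and controls then did not overlap for 3 genes. The share of all rows was 9.66%, but other rows carry the spread of the subtracted mean, so it is no like measure. Tek was at -2.37, -2.59 and -2.48 in mutants and -2.07, -2.19 and -2.32 in controls, a difference of -0.29. Cldn5 was at 2.07, 2.03 and 2.06 in mutants and 2.18, 2.25 and 2.24 in controls (-0.17), and Flt1 at 1.07, 1.15 and 1.14 in mutants and 0.76, 0.94 and 1.04 in controls (0.21). Within groups the SDs were 0.11 in mutants and 0.12 in controls for Tek, 0.02 and 0.04 for Cldn5, and 0.04 and 0.14 for Flt1 (n = 3 each). These differences were not tested, since limma on this scale gives the 10 genes a variance pooled over unlike rows.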

How the data were processed

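RNA of single embryos (3 mutant, 3 control) was labelled for 1-colour Agilent arrays, per the labels' protocols. The deposited intensity of each spot comes from Agilent Feature Extraction 10.7.3.1 and has its background subtracted, with no step between arrays, per the file headers. In the authors' deposited table are log2 values, a log2 ratio, a p-value and an fdr for 27269 probes. The submitters' processing notes name limma. Columns of that table were used by group only, because their numbers do not follow the titles. Deposited flags of 0 or 1, a score per spot, mark detection and outliers, per the file headers.

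Outlier spots were left out, log2 processed signals were scaled to the 75th percentile of the array (39429 probes) and spots averaged. Probes well above background on at least 3 arrays were kept (26849), with the brightest per gene (21067 rows). Groups were compared with limma 3.58.1 in R 4.3.3 (lmFit, eBayes, Benjamini-Hochberg, two-sided, threshold 0.05), tested on simulated data. Tables and figures used pandas 2.3.3, numpy 2.4.6 and matplotlib 3.10.9 under Python 3.11.15. The genes and lists were chosen with earlier results of these data known. Named are the 10 genes, up to 4 of each list by smallest p, and 8 by correlation. The values of 1 gene of the barrier list are not reported here. Titles give litters that pair the embryos, whose deviations correlated at 0.308, 0.357 and 0.107 within litters and at -0.41 to 0.109 between them. Alternatives are under the closing section. With 3 arrays a group, their number limits the precision.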

Additional observations from a re-analysis of the deposited data

How the results depend on the processing

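Under all 21 alternatives that test them 0 of the 10 endothelial genes passed, with the smallest adjusted p at 0.143 (Tek). Of 222 recomputed differences 23 had the opposite sign, and those of Tek and Cldn5 were negative throughout. Many of the 222 equal those of the first fit, because changes of detection filter, block, variance or threshold left these differences unmoved. The share of 23 is thus no measure of stability. With litter as a replicate block, 0 rows passed and the median of the 10 genes was -0.13, and the pairing changed no call among them. The 7 rows called over all rows became 131 with normexp (offset 50), 15 with quantile normalization, 22 with median centring, 0 without a filter on dim probes, 26 with detection on all 6 arrays, 2 with probes averaged per gene, 0 with slide as a block, 0 with litters 2 and 3 alone, 0 without litter 2, 1 without litter 3, 143 with trend and robust variance, 34 with the authors' log2 values, 80 at an adjusted p under 0.1 and 261 relative to the endothelial genes. The 261 come from the scale on which limma pools variance over unlike rows, so they are no like count. Without each embryo in turn, 0 to 1 rows passed, and the cause of these moves was not tested.

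Median centring, which set the median of all rows to -0.0787 from 0.0245, put Pecam1 at -0.00565, Flt1 at -0.000986, Tie1 at -0.028 and Sox17 at -0.0587. With litters 2 and 3 alone, Flt1 was at -0.122, Tie1 at -0.00177 and Sox17 at -0.156. Without litter 3, Kdr was at 0.0878, Esam at 0.0356 and Emcn at 0.0811. The authors' log2 values gave Pecam1 -0.00167, and the second probes gave Kdr 0.0699 and Sox17 -0.0104. Without each embryo in turn, differences ran between -0.0189 and 0.232 for Pecam1, -0.245 and 0.0713 for Kdr, -0.0102 and 0.26 for Flt1, -0.528 and -0.178 for Tek, -0.383 and -0.0774 for Cldn5, -0.00628 and 0.195 for Tie1, -0.342 and 0.02 for Esam, -0.373 and 0.114 for Emcn, -0.0576 and 0.156 for Sox17, and -0.251 and 0.0097 for Sox18. The lowest came without mutant 1, except that of Sox17 (without control 1), and the highest without mutant 3. Signal over background limits dim genes, detected on every array or not: normexp put Tek at -0.171, Epb42 at -0.45, Rhag at -0.17, Osr1 at -0.25, Esrp1 at 0.37 and Grhl2 at 0.43, and Sox18 and Emcn both at -0.08.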

Other observations

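Microglial and macrophage genes had medians of 0.11, -0.41 and -0.39 from the control mean in mutants and 0.13, 0.08 and -0.18 in controls, and 0 of 16 measured passed in limma. Their 4 smallest p were those of Fcgr3 (-0.62), Itgam (1.12), Cd68 (-0.18) and C1qa (-0.26), which were -0.05, 1.10, 0.10 and -0.08 with normexp background correction. Itgam went against most of its list, in which 14 differences were negative and 2 positive. Its values of 1.17, 1.56 and 0.62 within litters 1 to 3 were close to those of the neuronal gene Snap25 (1.19, 1.59 and 0.62). The reason was not tested. Of the 10 progenitor genes 0 passed, led by Emx2 (-0.92), Lhx2 (-0.58), Pax6 (0.33) and Emx1 (-0.81), and of 9 surface ectoderm genes 0 passed, led by Esrp1 (0.59), Trp63 (0.20), Grhl2 (1.03) and Krt8 (0.72).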
